A study of Mus musculus with 4 samples.

Results

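The Otof/Stac neurons are the 74 nuclei that the deposited annotation of the posterior hindbrain assigns to the neuronal cluster named for *Otof* and *Stac* and that passed the quality filter. They were 74 of 12539 neurons in 134 neuronal clusters, and of 39461 kept nuclei in all. Nuclei were isolated from the posterior hindbrain, which holds the area postrema (AP) and the nucleus tractus solitarii (NTS), sorted by their DNA stain and profiled with the 10x Genomics 3′ kit in 4 libraries. The library was the unit of replication, with n = 2 for control mice and n = 2 for AgRP-Gq;POMC-Gi mice, whose libraries are called Gq/Gi below. All mice were adults of 12 to 20 weeks of both sexes on a C57BL/6 background, and both groups received the DREADD ligand CNO at 3 mg per kg intraperitoneally 1 h before tissue was taken, without access to food.

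AgRP-Gq;POMC-Gi mice carried AgRP-IRES-Cre with a Cre-dependent hM3DGq allele and POMC-Dre with a Dre-dependent hM4DGi allele, so that CNO activates neurons that expressed *Agrp* and silences neurons that expressed *Pomc*. Control mice carried both DREADD alleles but neither recombinase, and should therefore express neither receptor. A recombinase can also mark cells in which its promoter was active only earlier, in any region, and need not mark all cells in which it is active. For the number of mice the sources differ, with 2 per group in the methods, pooled by condition, and 4 in the source data of the sequencing. Which mice went into which library is not given in the sources used here, so both libraries of a group may come from 1 pool. No p-value below therefore measures the spread between mice. The p-values of the gene tests by edgeR rest on a spread estimated across genes, rather than on each gene's own spread between libraries.

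*Otof* encodes otoferlin, a membrane protein of the ferlin family with several calcium-binding domains, which is required for vesicle release at the ribbon synapse of inner hair cells. *Stac* encodes an adaptor protein that binds L-type calcium channels and slows their inactivation. Inhibitory neurons of the hindbrain and spinal cord make GABA with glutamate decarboxylases, recapture glycine with a plasma membrane transporter and load both transmitters into vesicles with 1 shared carrier, and many of them descend from progenitors whose daughters express *Pax2*, *Lhx1* and *Lhx5*. Values below are UMIs summed over the nuclei of a library, divided by all UMIs of these nuclei and scaled to 1e6 (CPM), and are given as mean ± SD of the 4 libraries. As the clusters were built from expression, values set against other neurons describe the cluster and were not tested.

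The cluster held 6 nuclei (55680 UMIs) in control replicate 1 and 10 nuclei (100232 UMIs) in control replicate 2, as against 19 nuclei (167820 UMIs) in Gq/Gi replicate 1 and 39 nuclei (433821 UMIs) in Gq/Gi replicate 2. Levels in control replicate 1 therefore rest on the fewest UMIs, 1 UMI being worth 17.96 CPM there. The median nucleus held 10294.5 UMIs (range 3362 to 18009), compared with 8695 in other neurons, and 3843.5 genes. None held more than 2 times the cluster median. Kept nuclei of different libraries shared 19 to 36 barcodes per pair of libraries. One nucleus of the cluster shared its barcode with a kept nucleus of another library, which was not in the cluster. Mitochondrial RNA reached at most 0.598% of UMIs in a nucleus of the cluster.

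*Otof* (ENSMUSG00000062372, chromosome 5 of GRCm38, 30367062 to 30461932, minus strand) stood at 251 and 130 CPM in control replicates 1 and 2 and at 143 and 224 CPM in Gq/Gi replicates 1 and 2. All 4 libraries lay above other neurons, which stood at 15.4 ± 0.220 CPM. The mean was 187 ± 59.7 CPM, rank 4 of the neuronal clusters after 1 of the clusters named Bnc2/Ebf2 (403 ± 74.9 CPM), Otof/Gbx1 (352 ± 263) and Myo5b/Otof (222 ± 127) and before Ccdc172/Ebf2 (123 ± 29.8). Except for this Bnc2/Ebf2 cluster, whose lowest library stood at 323 CPM, the libraries of these clusters overlapped those of the Otof/Stac neurons, whose rank by library was 3, 4, 6 and 3. *Otof* had a UMI in 55 of 74 nuclei (74.3%, exact 95% Clopper-Pearson interval 62.8 to 83.8%), compared with 8.08% of other neurons and 0.0833% of oligodendrocytes, which should lack it and had a median of 2460 UMIs. Intervals cover counting error only. After thinning every nucleus to 2000 UMIs the shares were 30.96% in the cluster, 2.77% in other neurons and 0.0588% in oligodendrocytes.

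*Stac* stood at 593 and 299 CPM in the control libraries and at 387 and 391.9 CPM in the Gq/Gi libraries, with a mean of 418 ± 124 CPM, compared with 68.7 ± 34.7 CPM in other neurons. The cluster also had rank 4 for *Stac*, after Ano2/Foxp2 (1326 ± 415 CPM), Otof/Gbx1 (517 ± 98.6) and Foxp2/Ano2 (483 CPM, present in 2 libraries only) and before Cpa6/Cngb3 (255 ± 152). Of these, Ano2/Foxp2 alone did not overlap with it. A UMI of *Stac* was found in 69 of 74 nuclei (93.2%, interval 84.9 to 97.8%), compared with 21.7% of other neurons. Both genes had a UMI in 53 nuclei, *Stac* alone in 16, *Otof* alone in 2 and neither in 3. Nuclei with *Otof* held a median of 10434 UMIs and those without it 8826, and the part of depth in its detection was not tested. The pair of genes marks more than this cluster, since it held 5.18% of the 1062 neurons with *Otof*, 2.48% of the 2780 with *Stac* and 16.9% of the 313 with both. Of the other STAC genes, *Stac2* stood at 52.2 ± 26.6 CPM, compared with 40.6 ± 5.71 in other neurons, and *Stac3* at 7.71 ± 7.49, compared with 8.54 ± 0.762.

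**Figure D1:**
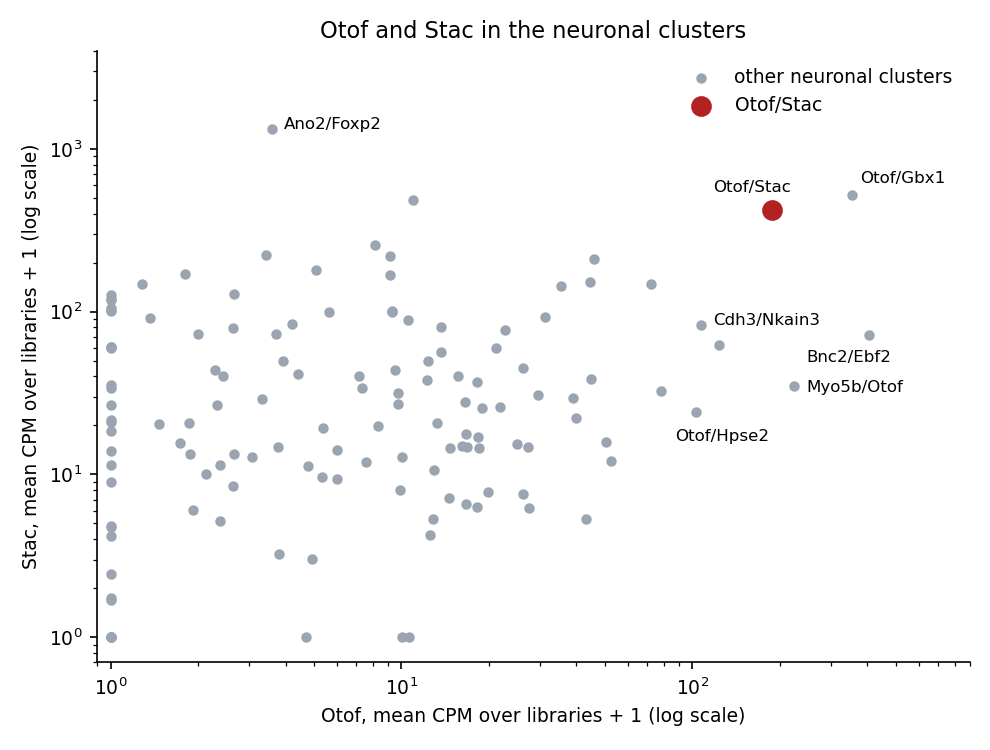
Mean CPM of Otof (x axis) and of Stac (y axis) over the libraries, both plus 1 and on log scales, with 1 point for each of the 134 neuronal clusters and the Otof/Stac cluster in red. The cluster (187 CPM of Otof, 418 CPM of Stac) and Otof/Gbx1 (352 and 517 CPM) are the points high on both axes.

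The neuronal label held in the markers. *Rbfox3*, the gene of the neuronal nuclear protein NeuN, had a UMI in 70 of 74 nuclei, and *Snap25*, a protein of the vesicle fusion complex, in every nucleus. Against other neurons, 2 of the 7 neuronal genes, *Rbfox3* and *Syt1*, were higher in every library and 4 were lower, with a median log2 ratio of -0.15. *Map2* stood at 431 ± 65.7 CPM, for example, compared with 556 ± 24.3. Of the 7 oligodendrocyte markers 1 had no UMI, and their summed level ranged from 144 to 200 CPM in the 4 libraries, compared with 153 to 307 CPM in other neurons and 12885 CPM in oligodendrocytes. *Mog*, a defining gene of oligodendrocytes, had a UMI in 1 of 74 nuclei. The 5 ependymal and choroid plexus markers, 3 of them without a UMI, summed to 0 and 848 CPM in the control libraries and to 5.96 and 449 CPM in the Gq/Gi libraries. Other neurons showed the same order, with 10.1, 1016, 14.6 and 595 CPM. The sums for astrocytes (53.9 to 85.3 CPM), microglia (69.8 to 113), vessels (17.96 to 71.5) and oligodendrocyte precursors (6.92 to 17.96) were all low beside the 13372 to 14707 CPM of the 7 neuronal genes. The highest vascular sum was that of Gq/Gi replicate 1, where other neurons stood at 13.1 CPM.

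The Otof/Stac neurons were inhibitory by their transmitter genes. *Slc17a6*, a vesicular glutamate transporter, had 2 UMIs in all, 1 in each of 2 nuclei of Gq/Gi replicate 2 (2.70% of nuclei, interval 0.329 to 9.42%), compared with 35.9% of other neurons. *Slc17a7* and *Slc17a8* had no UMI in 74 nuclei. *Slc32a1*, the vesicular carrier of GABA and glycine, stood at 17.96 and 140 CPM in the control libraries and at 59.6 and 50.7 CPM in the Gq/Gi libraries. Its mean was 67.0 ± 51.7 CPM, compared with 26.9 ± 1.02 in other neurons, and only control replicate 1, with 1 UMI, lay below them. *Gad1*, a glutamate decarboxylase, stood at 305, 229, 143 and 201 CPM in the same order of libraries, with a mean of 220 ± 67.5, rank 2 of the neuronal clusters, compared with 49.8 ± 3.01 in other neurons. *Gad2*, the other decarboxylase, had 149 ± 21.1 CPM, compared with 95.1 ± 1.92.

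At least 1 of *Slc32a1*, *Gad1* and *Gad2* had a UMI in 72 of 74 nuclei (97.3%, interval 90.6 to 99.7%). *Slc6a5*, the glycine transporter of glycinergic terminals, stood at 71.8 and 190 CPM in the control libraries and at 209 and 124 CPM in the Gq/Gi libraries, with a UMI in 66.2% of nuclei, compared with 32.5% of other neurons. Its mean was 149 ± 62.6 CPM, compared with 82.9 ± 5.94. Of 8 genes of GABA and glycine handling, 4 were higher than in other neurons in every library and none was lower in every library. Across the 11802 genes detected in 5% or more of nuclei, 1025 (8.68%) were higher in 4 of 4 libraries and 1667 (14.1%) were lower, and the median log2 ratio was -0.03, compared with 0.74 over these 8 genes. These shares over all genes are also the reference for the counts of the lists below. They include genes of few UMIs, and a gene without a UMI in a library cannot be higher there. The part of expression level in the counts of lists was not tested. Of 15 genes of monoamine and acetylcholine neurons, 10 had no UMI. *Th*, tyrosine hydroxylase, had 12 UMIs in 8 nuclei, at 23.2 ± 12.0 CPM, compared with 3.27 ± 1.31, whereas *Dbh*, which makes noradrenaline, had none.

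**Figure D2:**
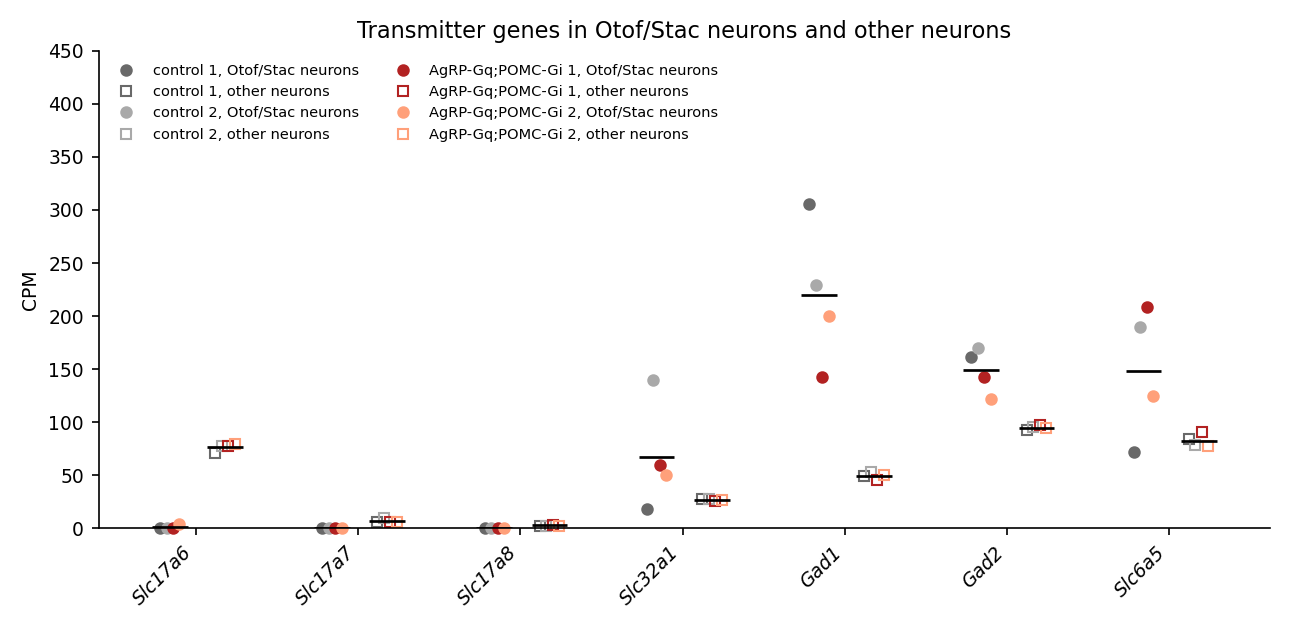
CPM of the transmitter genes by library in the Otof/Stac neurons (filled circles) and in other neurons (open squares), with bars for the means. In the Otof/Stac neurons Gad1 lay between 143 and 305 CPM and Slc17a6 had 2 UMIs in all, whereas other neurons held a mean of 76.4 CPM of Slc17a6.

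The genes that stood furthest above other neurons included transcription factors, 1 of them in first place. *Rorb* (ENSMUSG00000036192, chromosome 19, 18930605 to 19111196, minus strand), a nuclear orphan receptor, stood at 1293 and 1018 CPM in the control libraries and at 1222 and 768 CPM in the Gq/Gi libraries. Its mean of 1075 ± 236 CPM was the highest of the neuronal clusters, with the next, Lhx2/Reln, at 782 CPM, and other neurons at 51.3 ± 8.08. It had a UMI in 97.3% of the nuclei and 12.4% of other neurons, and after thinning to 2000 UMIs in 74.7% and 5.81%. *Sall3*, a zinc finger factor, followed at 152 ± 29.7 CPM, compared with 9.54 ± 2.87, in 82.4% of nuclei. *Gbx1*, a homeobox factor, stood at 98.7 ± 42.8 CPM, compared with 7.42 ± 1.52, in 45.9% of nuclei.

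Of 84 transcription factors of hindbrain and spinal lineages, 45 had no UMI and 29 were measured in 5% or more of nuclei, of which 12 were higher than in other neurons in every library and 8 were lower. *Ebf1*, a helix-loop-helix factor of postmitotic neurons, stood at 2820, 2744, 2938 and 2976 CPM, the narrowest relative spread of the factors named here, with a mean of 2869 ± 107, compared with 516 ± 109, and a UMI in every nucleus. *Pax2* reached 284 ± 38.5 CPM, compared with 59.1 ± 4.60, in 90.5% of nuclei. *Lhx1* (61.6 ± 12.5 CPM, compared with 14.5 ± 1.83) and *Lhx5* (27.6 ± 6.73, compared with 6.30 ± 1.23), LIM homeobox partners of *Pax2* in inhibitory lineages, were also higher in every library. The orphan receptor *Nr2f2* stood at 71.1 ± 29.6 CPM, compared with 12.6 ± 2.40, and the zinc finger genes *Bcl11a* and *Tshz1* at 239 ± 36.7 and 154 ± 30.6 CPM, compared with 103 ± 3.39 and 67.4 ± 5.94.

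The factors of the opposite direction included the TALE homeobox genes. *Meis1*, at 205 ± 27.3 CPM in other neurons and with a UMI in 59.2% of them, had no UMI in the cluster. With 3 UMIs over the cluster as the limit that a count of 0 allows, it was at least 51.8-fold lower. *Meis2* stood at 71.8, 9.98, 5.96 and 43.8 CPM, with a mean of 32.9 ± 31.02, compared with 355 ± 33.5. *Zfhx3*, a large homeobox and zinc finger factor, stood at 33.3 ± 31.2 CPM, compared with 488 ± 19.2. *Tshz3*, *Rora* and *Esrrg* were lower as well, at 56.0 ± 30.1, 592 ± 86.4 and 205 ± 33.4 CPM, compared with 208 ± 13.2, 1223 ± 52.5 and 485 ± 39.3.

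Of 26 *Hox* genes, which set position along the hindbrain and spinal cord, 10 had no UMI, and 4 of the 12 measured were higher in every library and none was lower. *Hoxb3* reached 111 ± 28.4 CPM, compared with 49.1 ± 4.75, and *Hoxb4* 48.5 ± 13.1, compared with 26.9 ± 8.72. *Hoxa2*, at 15.8 ± 13.6 CPM on 9 UMIs, was highest here of the neuronal clusters, with the next at 13.4 CPM, which lay within its spread. *Hoxb8* was detected in 3 of 4 libraries, at 17.4 ± 14.1 CPM, compared with 1.96 ± 1.60.

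Besides *Otof*, *Rorb*, *Sall3* and *Gbx1*, the 25 genes furthest above other neurons included genes of the cell surface and extracellular matrix. *Gpc3*, a glypican that carries heparan sulfate, stood at 216 and 389 CPM in the control libraries and at 358 and 258 CPM in the Gq/Gi libraries, with a mean of 305 ± 81.7, compared with 28.0 ± 5.04. The long non-coding RNA *A630012P03Rik* (127 ± 82.8 CPM, compared with 11.6 ± 1.85) overlaps it on the other strand. *Hs3st3a1* and *Hs3st3b1*, which sulfate heparan chains, were highest here of the neuronal clusters, at 71.6 ± 37.9 and 79.1 ± 22.3 CPM, with the next clusters at 53.7 and 65.8 CPM, differences smaller than their spread between libraries. *Fbn2*, a fibrillin, had 219 ± 49.3 CPM, compared with 20.1 ± 2.97, and *Col18a1*, a basement membrane collagen, 130 ± 50.8, compared with 17.0 ± 4.64. *Corin*, a serine protease that cleaves natriuretic peptide precursors, had 69.7 ± 20.0 CPM, compared with 5.78 ± 1.26.

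*Nxn*, the gene of the redox protein nucleoredoxin, stood at 305 and 190 CPM in the control libraries and at 304 and 240 CPM in the Gq/Gi libraries. Its mean of 260 ± 55.8 CPM was highest of the neuronal clusters and lay above the next, Otof/Gbx1, at 152 CPM, by more than its spread, while other neurons stood at 18.5 ± 1.14 CPM. *Prkcq*, a protein kinase C, had 114 ± 15.5 CPM, compared with 9.82 ± 2.97, and *Nox4*, an NADPH oxidase, 131 ± 54.1, compared with 15.6 ± 0.498. *Mgll*, the lipase that degrades the endocannabinoid 2-AG, reached 235 ± 58.8 CPM, compared with 33.8 ± 4.76, and the next, Sntb1/Cpne4, stood at 227 CPM. *Shroom4*, an actin-binding protein, varied least between libraries of these genes, at 70.01 ± 2.28 CPM, compared with 9.69 ± 0.651. The 25 also held *Serpinb1b*, *Rab38*, *Ppfibp2*, *Sema3f* and *Cpne7* and the predicted or non-coding genes *Gm27239*, *Gm31938*, *Gm3985* and *4930505G20Rik*.

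**Figure D3:**
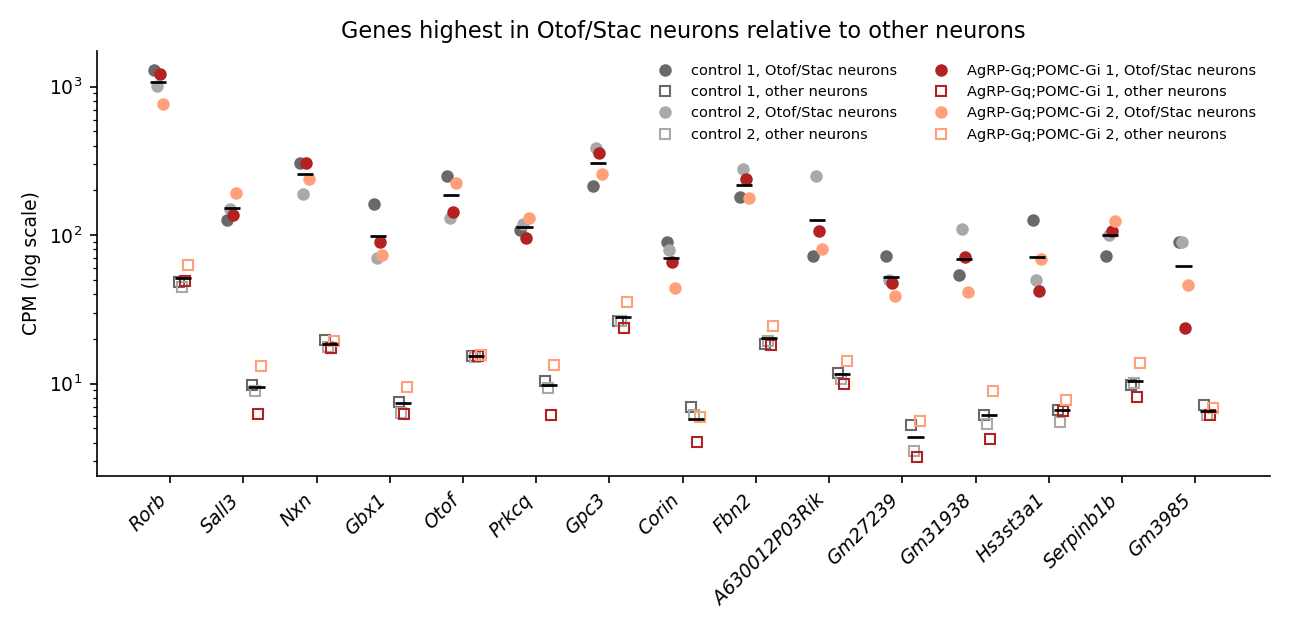
CPM (log scale) by library of the 15 genes with the highest ratio to other neurons, with filled circles for the Otof/Stac neurons, open squares for other neurons, 1 of each per library, and bars for the means. Rorb, at 768 to 1293 CPM, is the highest of them, and in every gene the 4 libraries of the cluster lie above other neurons of the same library, a condition of the choice.

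Of 54 genes with at least 20 CPM that were highest here of the neuronal clusters, the 10 furthest above the next cluster included *Rorb*, *Nxn* and *Hs3st3a1* and also *Mdga2*, a cell adhesion gene, at 6545 ± 254 CPM, compared with 2640 ± 50.004 in other neurons and 5033 CPM in the next cluster, Ebf2/Th. *Grm3*, a metabotropic glutamate receptor, stood at 902 ± 113 CPM, with the next cluster, Cdh3/Nkain3, at 712 CPM. *Clcn5*, a chloride-proton exchanger, stood at 115 ± 39.5 CPM and *Galc*, a lysosomal galactosidase, at 71.0 ± 23.4 CPM, with 81.8 and 53.2 CPM in the next clusters, within their spread. *Tnfsf8*, a cytokine of the TNF family, had 27.7 ± 14.1 CPM on 20 UMIs, compared with 0.842 ± 0.105 in other neurons.

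The 10 genes furthest below other neurons were, after *Meis1*, the secreted factor gene *Tafa1* (2.31 ± 4.61 CPM, compared with 520 ± 16.8), the RNA-editing homologue *Adarb2* (7.83 ± 12.0, compared with 718 ± 15.8) and *Il1rapl2* (5.98 ± 8.47, compared with 439 ± 36.5), followed by *Klhl1*, *4930509J09Rik*, *Gm32647*, *Ptprk*, *Cdh20* and *Tmem163*. *Tafa1* had 4 UMIs in the cluster, all in Gq/Gi replicate 2. Of 30 UMIs of *Gm32647*, 29 came from the same library.

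Genes of vesicle release stood on both sides of other neurons. Of 14 synaptotagmins measured, a family that includes calcium sensors of fusion, 5 were higher in every library and 3 lower. *Syt1*, a fast sensor of synaptic vesicles, reached 3375 ± 374 CPM, rank 3 of the neuronal clusters, compared with 1336 ± 31.9. *Syt10* and *Syt6* stood at 88.0 ± 37.4 and 114 ± 27.9 CPM, compared with 16.4 ± 2.20 and 37.3 ± 2.68, whereas *Syt2*, another fast sensor, stood at 44.3 ± 24.2, compared with 124 ± 8.62. Of 18 genes of the release machinery, 4 were higher and 5 lower in every library. *Cadps2*, a priming factor of dense-core vesicles, had 422 ± 180 CPM, compared with 143 ± 24.3, and the active zone genes *Rims1* and *Rims2* 1197 ± 75.0 and 1480 ± 146, compared with 999 and 1082. *Erc2* and *Pclo*, also of the active zone, were lower, at 504 ± 13.2 and 585 ± 30.0 CPM, compared with 726 and 728. Of the other ferlins *Fer1l6* alone was measured, at 3.79 ± 4.58 CPM, compared with 3.52.

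Of 18 calcium channel genes measured, which include the release channels of internal stores *Ryr2*, *Ryr3* and *Itpr1*, 9 were higher in every library and 3 lower, with a median log2 ratio of 0.40. *Cacna2d3*, an auxiliary subunit, stood at 1940, 1816, 1549 and 1837 CPM, with a mean of 1785 ± 166, compared with 519 ± 21.0, and *Cacna1e*, the R-type pore, at 878 ± 117, compared with 328 ± 22.8. The L-type pores, the channels that STAC proteins bind, differed in direction. *Cacna1c* stood at 698 ± 99.2 CPM, compared with 502 ± 23.5, and *Cacna1d* at 342 ± 81.9, compared with 485 ± 16.2, each in every library, and *Cacna1s*, the pore of skeletal muscle, had no UMI. *Cacna2d1* was the auxiliary subunit furthest below other neurons, at 72.9 ± 37.4 CPM, compared with 509 ± 28.8.

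Of 27 potassium channel genes, 11 were higher in every library and 3 lower. *Kcnip4*, a subunit of A-type channels, had 10116 ± 2618 CPM, compared with 4098 ± 159, and *Kcnb2*, a delayed rectifier, 1921 ± 220, compared with 689 ± 40.1. *Kcnk2*, a background channel, stood at 20.5 ± 10.9 CPM, compared with 88.9 ± 6.79. Of 13 sodium and HCN channel genes, 1 was higher in every library and 3 were lower, *Scn9a* (272 ± 73.2 CPM, compared with 522 ± 46.4), *Scn8a* and *Nalcn*. Of 11 calcium-binding protein genes, *Caln1* (572 ± 220 CPM, compared with 318), *Vsnl1* (405 ± 31.8, compared with 324) and *Hpcal1* were higher in every library, and *Ncald* (40.9 ± 17.0, compared with 123) and *Calb2* lower.

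Of 20 glutamate receptor genes, 8 were higher and 8 lower in every library. *Grm5* stood at 3610 ± 245 CPM, compared with 1303 ± 67.8, and *Gria1*, an AMPA receptor subunit, at 918 ± 103, compared with 391 ± 19.0. *Grm8* stood at 38.8 ± 45.7 CPM, compared with 493 ± 37.2, *Grik1* at 68.3 ± 51.1, compared with 361 ± 23.2, and *Grid1* at 114 ± 44.5, compared with 529 ± 35.5, the lowest but 1 of the neuronal clusters. Of 17 GABA and glycine receptor genes, 4 were higher and 4 lower. The glycine receptor subunits had opposite directions, *Glra3* at 286 ± 91.3 CPM, compared with 111 ± 13.3, and *Glra2* at 10.1 ± 17.2, compared with 52.0 ± 3.13.

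Of 29 neuropeptide genes, 7 had no UMI and 8 were measured in 5% or more of nuclei. *Nppc*, the gene of C-type natriuretic peptide, stood at 53.9 and 120 CPM in the control libraries and at 41.7 and 59.9 CPM in the Gq/Gi libraries, with a UMI in 35.1% of nuclei. Its mean was 68.8 ± 34.8 CPM, compared with 14.0 ± 3.42. *Npy* (17.5 ± 9.83 CPM, compared with 4.47 ± 1.48) and *Calcb* (14.1 ± 14.7, compared with 0.879 ± 0.131) were higher in every library on 12 and 6 UMIs. By library *Npy* had 1, 3, 1 and 7 UMIs and *Calcb* 2, 1, 1 and 2. For *Calcb* 1 UMI sufficed in any library, being worth 2.31 CPM or more, so its direction says little. *Sst* was lower, with 7 UMIs, all in Gq/Gi replicate 2. *Agrp*, whose locus drives Cre in the Gq/Gi mice, stood at 81.8 ± 23.2 CPM, compared with 88.1 ± 3.81 in other neurons and 20.01 in oligodendrocytes. At least 1 *Agrp* UMI was found in 54.1% of Otof/Stac nuclei, in 50.8% of other neurons and in 4.66% of oligodendrocytes. Thinned to 2000 UMIs a nucleus, which left out 0, 166 and 5416 shallower nuclei, the shares were 15.7, 16.2 and 3.56%. Control replicates 1 and 2 held 5 and 10 of the 62 *Agrp* UMIs of the cluster, and Gq/Gi replicates 1 and 2 held 8 and 39. *Agrp* therefore does not set the cluster apart from other neurons. When it checked its mouse model, the study found *Cre* mRNA selectively in AgRP neurons, which it places in the arcuate nucleus. It describes no such check in the hindbrain. Whether the UMIs counted here come from *Agrp* transcripts, and whether Otof/Stac neurons carry hM3DGq, was not tested. Of 24 genes that divide dorsal horn neurons into types, 11 were measured, of which 2, *Rorb* and *Npy*, were higher in every library and 4 were lower, among them *Reln* (2.31 ± 4.61 CPM, compared with 55.7), *Sst* and *Calb2*.

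Of 46 peptide and metabolic receptor genes, 22 had no UMI, compared with 16018 of all 32285 genes. Among the 22 were *Gfral*, *Mc4r*, *Mc3r*, *Ghsr*, *Cckar* and *Npy2r*, for each of which 0 of 757553 UMIs allows a level of up to 3.96 CPM. They were rare in other neurons too, with a UMI in 0.00869% (*Mc3r*) to 0.729% (*Npy2r*) of nuclei thinned to 2000 UMIs. These zeros therefore do not set the cluster apart. Of the 10 measured, 1 was higher in every library, *Oprm1*, the µ-opioid receptor, at 154 ± 34.4 CPM, compared with 106 ± 3.99, and 1 was lower, the orexin receptor *Hcrtr2*, at 21.4 ± 18.3, compared with 51.6 ± 4.32. Of 13 amine receptor genes, 1 was higher and 6 were lower in every library. The muscarinic receptors had opposite directions, *Chrm3* at 646 ± 220 CPM, compared with 352 ± 32.9, and *Chrm2* at 121 ± 36.6, compared with 261 ± 6.25. *Cnr1*, the cannabinoid receptor, stood at 8.59 ± 7.74 CPM, compared with 29.2.

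By Pearson correlation of log2(CPM + 10) over 10250 genes, given as a description across genes, which are not independent, the clusters most like it were Col18a1/Gpc3 (r = 0.934, 161 nuclei), Col25a1/Nox4 (r = 0.916, 110 nuclei) and Cdh3/Nkain3 (r = 0.907, 204 nuclei). Each of these has more nuclei than the other clusters named for *Otof*, and the part of depth in r was not tested. The cluster Otof/Gbx1, with 42 nuclei, ranked 51 at r = 0.863, and Otof/Hpse2 and Myo5b/Otof ranked 107 and 99.

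The 3 most alike clusters were all inhibitory, with 64.9 to 70.9 CPM of *Slc32a1*. *Col18a1*, at 130 CPM here, stood at 180 CPM in Col18a1/Gpc3, and *Nox4*, at 131 CPM here, at 140 CPM in Col25a1/Nox4. *Rorb*, at 1075 CPM here, stood at 741 CPM in Col18a1/Gpc3, at 40.0 in Col25a1/Nox4 and at 13.4 in Cdh3/Nkain3. *Stac* stood at 152, 28.5 and 82.0 CPM in the same order and *Ebf1* at 773, 825 and 272 CPM, all below the 418 and 2869 CPM of the Otof/Stac neurons. *Syt10* and *Kcnmb2*, an auxiliary subunit of BK channels, stood at 88.0 and 277 CPM in the Otof/Stac neurons and at 1.75 and 2.80 CPM in Col18a1/Gpc3.

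The cluster Otof/Gbx1 shared *Rorb* (717 CPM), *Ebf1* (2701 CPM), *Stac* (517 CPM) and *Mgll* (219 CPM) but not the level of *Fbn2* (12.0 CPM, compared with 219). It stood above the Otof/Stac neurons in *Sall3* (173 CPM), *Gbx1* (242), *Gpc3* (365), *Prkcq* (132) and *A630012P03Rik* (191). The same held for *Serpinb1b* (215), *Ppfibp2* (127) and *Sema3f* (165), whereas *Nxn* (152) and *Gm3985* (56.9) stood below. All of these but *Ebf1* and *Stac* are among the 25 genes furthest above other neurons. *Grm3* stood at 112 CPM there, compared with 902. The cluster Myo5b/Otof, of rank 3 for *Otof*, held 102 CPM of *Slc17a6* and none of *Slc6a5*, so *Otof* occurred in neurons of both transmitter classes.

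Among the 74 nuclei, the spread of UMI counts within libraries was computed for 2863 genes with at least 50 UMIs, as the ratio of the variance to that of counting alone. Its median was 1.201, and 64 genes lay above 5. *Kcnip4* reached 52.2 and *Rorb* 5.77, with 1 nucleus holding 6.18% of its UMIs, and *Otof*, *Stac*, *Gad1* and *Nxn* lay between 1.62 and 2.09. This ratio rises with the UMIs of a gene, which were 6884 for *Kcnip4*, 712 for *Rorb* and 148 to 298 for the others. It therefore does not rank these genes by their relative spread. No split of the cluster was made from these values.

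The share of Otof/Stac neurons differed between the libraries. They were 0.243% (exact interval 0.0892 to 0.528%) and 0.365% (0.175 to 0.671%) of neurons in control replicates 1 and 2 and 0.514% (0.310 to 0.802%) and 1.07% (0.764 to 1.46%) in Gq/Gi replicates 1 and 2. Both Gq/Gi libraries lay above both control libraries, and the highest, replicate 2, held more nuclei of the cluster than the other 3 libraries together. The means were 0.304 ± 0.0867% and 0.793 ± 0.395% (SD, n = 2 each), a difference of 0.489 percentage points and a ratio of 2.61. An exact two-sided permutation test over libraries gave p = 0.333, the smallest that 2 against 2 libraries allow, so it could not call any difference. Of the 134 neuronal clusters, 33 (24.6%) were higher in both Gq/Gi libraries without overlap and 18 (13.4%) lower, and the cluster had rank 6 by ratio. Without Gq/Gi replicate 2 the difference fell to 0.210 points.

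As a share of all kept nuclei, the values were 0.0617 and 0.0995% for the control and 0.195 and 0.391% for the Gq/Gi libraries. The libraries also differed in how many neurons they held, 2470 and 2736 of 9725 and 10051 kept nuclei in the control libraries and 3696 and 3637 of 9723 and 9962 in the Gq/Gi libraries, and the part of this in the result was not tested. Of the clusters compared above, Otof/Gbx1 had a ratio of 3.02 (4, 4, 12 and 22 nuclei) and Col25a1/Nox4 of 1.20, both without overlap, whereas Col18a1/Gpc3 (1.51), Cdh3/Nkain3 (0.939), Myo5b/Otof (1.96) and Otof/Hpse2 (1.04) overlapped.

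**Figure D4:**
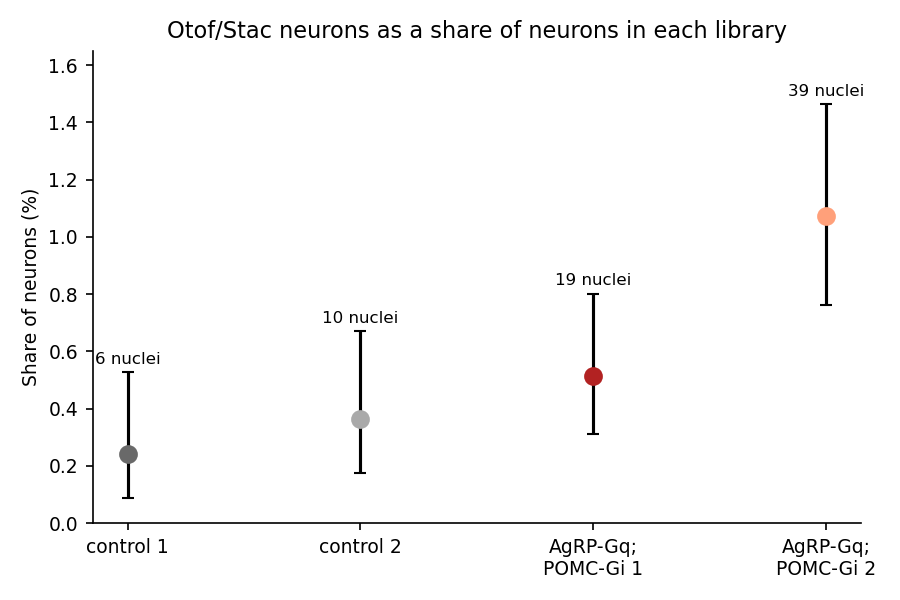
Nuclei of the Otof/Stac cluster as percent of the neurons of each library, with exact 95% Clopper-Pearson intervals as bars. The control libraries lie at 0.243 and 0.365% and the Gq/Gi libraries at 0.514 and 1.07%.

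The study used immediate early genes (IEGs) to ask which hindbrain neurons respond to the combined chemogenetic manipulation. In the Otof/Stac neurons none of the 10 IEGs of that panel passed the test between groups. *Nr4a3* and *Gem* had no UMI, *Fosl2* had 4, and the other 7 entered the fit over 11802 genes, in which 0 had an adjusted p under 0.05 by edgeR's quasi-likelihood test and 0 an unadjusted p under 0.05. Over all genes the shares were 0.0763% and 5.05%. DESeq2 called 0 as well. *Fos* was found in 7 of 74 nuclei, with 0, 5, 0 and 6 UMIs in control replicates 1 and 2 and Gq/Gi replicates 1 and 2 (0, 49.9, 0 and 13.8 CPM). *Homer1*, a postsynaptic scaffold gene, stood at 162 and 150 CPM in the control libraries and at 95.3 and 111 CPM in the Gq/Gi libraries, a log2 difference of -0.35 with an adjusted p of 0.974 by edgeR. Without overlap, 3 of the 7 were higher in Gq/Gi libraries (*Jun*, *Btg1* and *1700016P03Rik*) and 2 lower (*Homer1* and *Junb*), compared with 19.6% and 15.5% of all genes. All of these but *Homer1* had 23 UMIs or fewer. The ratio of pooled *Fos* counts, Gq/Gi over control, was 0.311 with a counting interval of 0.0791 to 1.29, on 11 UMIs in all. All 5 UMIs of the control group came from control replicate 2, and the log2 difference of -1.45 by edgeR turned to 4.202 without that library.

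Over all genes, edgeR's test called 9 of 11802 (0.0763%) between the groups, 6 higher (0.0508%) and 3 lower (0.0254%) in Gq/Gi libraries, and 596 (5.05%) had an unadjusted p under 0.05. Without overlap between the groups, 2314 genes (19.6%) were higher and 1831 (15.5%) lower. These calls depended on how the test was made. DESeq2, edgeR's own filter on low counts and edgeR's adjusted deviances called 0 genes each, with 35, 132 and 624 genes at an unadjusted p under 0.05. Adjusted deviances were used in an early run, before edgeR's default was restored as the main fit. They were added as an alternative after seeing the data. Fits without Gq/Gi replicate 1 and without Gq/Gi replicate 2 called 2 genes each, and that without control replicate 2 called 13. These counts do not say which genes were called. TMM scaling set the median log2 difference of all genes at 0.22, compared with 0.03 with library size alone, under which 4 genes were called, 1 higher and 3 lower.

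*Cntn5*, a contactin of the neuronal surface, had the lowest p. It was counted with 11 and 8 UMIs in control and with 133 and 158 UMIs in Gq/Gi libraries, which is 198 and 79.8 CPM compared with 793 and 364 CPM, with a log2 difference of 2.36 ± 0.33 (SE), or 2.14 relative to the median gene, and an adjusted p of 1.83e-08 by edgeR. The groups did not overlap. One nucleus of Gq/Gi replicate 1 held 76 of the 310 UMIs (24.5%). Without that nucleus the difference was 1.74 with an adjusted p of 0.00360, and without the whole library it was 1.72 with an adjusted p of 0.337, over alternatives whose adjusted p ran from 3.00e-09 to 0.789. *Cntn5* had a UMI in 2 of 6 and 5 of 10 nuclei of the control libraries and in 10 of 19 and 25 of 39 nuclei of the Gq/Gi libraries. The variance ratio of its UMI counts within libraries, as described above, was 10.7. In other neurons *Cntn5* stood at 1251 ± 43.2 CPM, above every library of the cluster, and its log2 difference was 0.11 (adjusted p = 0.840 by edgeR).

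Of the other genes called higher, *Ptprt*, a receptor tyrosine phosphatase, rose from 952 and 1018 CPM to 1782 and 1634 CPM, with a log2 difference of 1.00 ± 0.21 and an adjusted p of 0.00528 by edgeR. *Zfp804a*, a zinc finger gene, stood at 521 and 718 CPM in the control libraries and at 1150 and 1049 CPM in the Gq/Gi libraries. The non-coding gene *Gm1992* stood at 53.9 and 69.8 CPM compared with 220 and 194 CPM, and *Gm14582* at 0, 1, 16 and 39 UMIs, a ratio of pooled counts of 14.3 with a counting interval of 2.45 to 573. *Pcdh15*, a cadherin of hair cell tip links, was called although its groups overlapped, at 413 and 59.9 CPM compared with 369 and 473 CPM. Its difference of 1.34 fell to 0.27 without control replicate 2. With library size in place of TMM factors none of these 5 genes was called. Relative to the median gene, the log2 differences of *Ptprt* and *Zfp804a* were 0.78 each. Each of these 5 genes lost its call in 7 to 9 of 11 alternatives, among them DESeq2 and the omission of either Gq/Gi replicate.

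*Nkain3*, a gene of a small family of proteins that interact with the sodium pump, was lower in the Gq/Gi libraries, at 41.7 and 92.2 CPM compared with 162 and 369 CPM, on 7, 40, 9 and 37 UMIs. The log2 difference was -1.73 ± 0.35 with an adjusted p of 0.00374 by edgeR, and the groups did not overlap. Without control replicate 2 it was -0.86 with an adjusted p of 0.827, and the call was also lost without either Gq/Gi replicate. Other neurons held 399 ± 3.79 CPM of *Nkain3* and 469 ± 24.7 CPM of *Egfem1*. In the cluster *Egfem1* stood at 35.9 and 219 CPM compared with 35.8 and 27.7 CPM. One nucleus held 17 of its 42 UMIs (40.5%), and without control replicate 2 its difference of -2.11 was -0.03. *Sparcl1* and *Gm13481*, among the next genes that were lower without overlap, did not pass the test, with *Sparcl1* at 162 and 210 CPM compared with 53.6 and 71.5 CPM (adjusted p = 0.366 by edgeR).

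**Figure D5:**
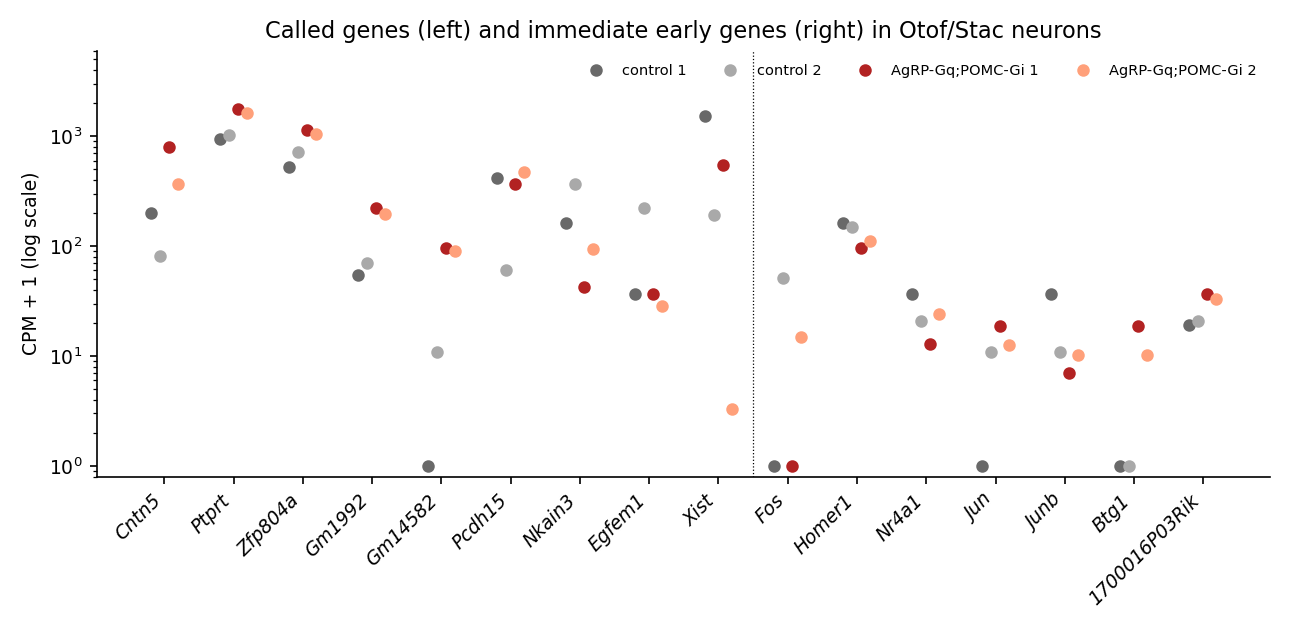
CPM plus 1 (log scale) by library in the Otof/Stac neurons of the 9 genes called between groups (left of the dotted line) and of the 7 IEGs measured (right), with 1 point per library and groups by colour. Cntn5 (79.8 and 198 CPM in the control libraries, 364 and 793 CPM in the Gq/Gi libraries) and Nkain3 do not overlap, whereas Pcdh15 and Xist do.

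The remaining call was *Xist*, the RNA of the inactive X chromosome, at 1527 and 190 CPM in the control libraries and at 542 and 2.31 CPM in the Gq/Gi libraries, which overlap. Its log2 difference was -1.57 and turned to 0.26 without control replicate 1, and the call was lost in 5 of 11 alternatives. The Y-linked gene *Uty* had 0, 12, 19 and 87 UMIs in the same order of libraries. The nuclei of control replicate 1 thus held no UMI of *Uty* and those of Gq/Gi replicate 2 held 1 UMI of *Xist*, so X- and Y-linked RNA varied with the library in this cluster, and the part of sex in the differences above was not tested. Of the genes of the lists above, among them the channels, receptors and transcription factors, 0 were called between groups by edgeR, and DESeq2 called no gene. Of the 6 sex-linked genes, *Xist* was the 1 called, and 4 had an unadjusted p under 0.05, the others being *Tsix*, *Uty* and *Eif2s3y*. An unadjusted p under 0.05, which 5.05% of all genes had, was found by edgeR for 4 of 29 transcription factors, 4 of 18 release genes, 3 of 18 calcium channels, 4 of 20 glutamate receptors, 2 of 14 synaptotagmins, 2 of 13 sodium and HCN channels, 2 of 8 neuropeptides and 2 of 11 dorsal horn genes. It was found for 1 of 27 potassium channels and 1 of 17 GABA and glycine receptors, and for 0 of 12 *Hox* genes, 0 of 13 amine receptors, 0 of 10 peptide receptors, 0 of 11 calcium-binding genes, 0 of 8 genes of GABA and glycine handling, 0 of 3 STAC genes and 0 of 2 each of the ferlin, glutamatergic and monoamine or acetylcholine genes. Among the cell type markers it was found for *Map2*, 1 of 7 neuronal genes, and for *Ttr*, 1 of 2 ependymal and choroid plexus genes tested, and for 0 of 5 oligodendrocyte, 0 of 1 astrocyte, 0 of 2 microglial and 0 of 2 vascular markers. *Otof* and *Stac* had log2 differences of 0.33 ± 0.35 and 0.11 ± 0.27, and their groups overlapped.

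Whether a group difference was particular to the cluster was tested as an interaction, with other neurons of the same libraries as reference. It was called for 2 of 11802 genes (0.0169%), with 497 at an unadjusted p under 0.05. *Cntn5* differed from other neurons by 2.14 ± 0.39 on the log2 scale (adjusted p = 0.000556 by edgeR) and *Nkain3* by -1.82 ± 0.38 (adjusted p = 0.00988 by edgeR), while in other neurons themselves 0 of these genes were called by edgeR and 629 had an unadjusted p under 0.05. Without the nucleus that held most *Cntn5*, its interaction had an adjusted p of 0.280 by edgeR, and the range over all alternatives was 1.02e-05 to 0.864. For *Nkain3* it was 0.000208 to 0.99995. DESeq2 and the adjusted deviances called 0 genes, with 145 and 539 at an unadjusted p under 0.05, and no gene was called without Gq/Gi replicate 1.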

How the data were processed

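Nuclear RNA of the posterior hindbrain was measured in 4 libraries. The authors mapped reads to GRCm38 with Cell Ranger 7.0.0 and deposited raw UMI counts per gene and barcode. The annotation used for counting is not given in the sources used here. Their table of nuclei, made with Seurat 4.3.0, gives counts of UMIs and genes and the percent of mitochondrial UMIs per nucleus, as deposited by the authors. It also gives the nuclei kept (at least 800 UMIs, at least 500 genes, at most 10% mitochondrial RNA, then doublet removal) and Louvain clusters on an scVI embedding adjusted for sample, without IEGs. These clusters were taken as given. No doublet caller was run here. The table's IEG scores are the authors' own comparison and were not used, nor was the joined matrix. Gene positions are from GENCODE M21, in which 32235 of 32285 genes were found by identifier.

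UMIs were summed per library. The test between groups was the quasi-likelihood test of edgeR 4.0.16 in R 4.3.3 (default deviances, TMM factors, genes detected in 5% or more of the cluster's nuclei, Benjamini-Hochberg over all 11802 genes, called at an adjusted p under 0.05). The interaction fit added the library as a term. The SE of a log2 difference was derived as its size over the square root of the test's F statistic. It therefore rests on the spread estimated across genes and is no direct measure of the spread between libraries. Alternatives were DESeq2 1.42.0, library size alone in place of TMM factors, filterByExpr, no filter, the replicate number as a block, each library left out, and, added after seeing the data, adjusted deviances, omission of 1 nucleus and another denominator for shares. An early run had used adjusted deviances before the default was restored. Where leaving out a library leaves 1 in its group, that one is assumed to vary like the other group.

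Genes were named by these rules: members of gene lists, the 25 highest ratios to other neurons (CPM plus 1, mean of at least 50 CPM, detected in 25% or more of nuclei, higher in 4 of 4 libraries), the 10 lowest among genes of at least 100 CPM in other neurons, the 10 furthest above the next of the neuronal clusters (at least 20 CPM, detected in 15% or more of nuclei), and all genes called between groups, with the 5 of lowest p in each direction. A few genes that meet these rules are not reported here. Members and lists were chosen with earlier results of these data known. Scripts were tested on simulated data. Python 3.11.15 with numpy 2.4.6, pandas 2.3.3, scipy 1.17.1 and matplotlib 3.10.9 were used.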

Additional observations from a re-analysis of the deposited data

Results flagged for a closer look

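The group difference in the Otof/Stac neurons departed from that in other neurons, by the test of the interaction, for *Cntn5* (2.14 on the log2 scale) and for *Nkain3* (-1.82). For *Cntn5*, 1 nucleus of AgRP-Gq;POMC-Gi replicate 1 held 76 of 310 UMIs, and without that whole library the value was 1.70. For *Nkain3*, control replicate 2 held 37 of 93 UMIs, and without it the value was -0.89, while leaving out each of the other libraries gave -1.45 to -2.76. The call was lost for *Nkain3* without control replicate 2 or AgRP-Gq;POMC-Gi replicate 1, and for *Cntn5* without either of the same libraries (1.59 without control replicate 2). *Cntn5* was no longer called without that nucleus (adjusted p = 0.280 by edgeR's quasi-likelihood test). Neither gene was called with DESeq2 or with adjusted deviances.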

How the results depend on the processing

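The 9 genes called between groups became 4 with library size in place of TMM factors (1 higher, 3 lower), 0 with DESeq2, 0 with filterByExpr and 0 with adjusted deviances. With the replicate number as a block they became 3 (1 higher, 2 lower). The deviations of same-numbered libraries correlated at 0.01 over 11802 genes, many of few UMIs. Counting error lowers such a value, so it cannot decide whether the numbers pair the libraries. In other neurons the ependymal and choroid plexus sums were 10.1 and 14.6 CPM in the replicates numbered 1 (control, then Gq/Gi). They were 1016 and 595 CPM in the replicates numbered 2. Leaving out each library gave 2 to 13 calls. For the interaction, the 2 calls became 3 with library size, 0 with DESeq2, 0 with adjusted deviances and 1 without the nucleus with most *Cntn5*, and 0 to 4 with each library left out. No replicate block was fitted for the interaction, in which the library was already a term. No IEG was called under any alternative run. The log2 difference of *Xist*, -1.57, reversed to 0.26 without control replicate 1 and ranged from -7.85 to 0.26 with each library left out.

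The difference in share, 0.489 percentage points, was 0.210 to 0.768 with each library left out, 0.213 of all kept nuclei and 0.878 with only overlapping clusters, besides this one, in the denominator. That last denominator leaves out clusters by their own difference between the groups, so 0.878 is no separate check. The ranks of *Otof* and of *Stac* among neuronal clusters, 4 for each, were 3 or 4 under the alternatives run, and the inhibitory call held at 4-fold and at 10-fold. In single libraries the ranks moved further, with 3, 4, 6 and 3 for *Otof* and 2, 3, 4 and 5 for *Stac*. The group differences of *Otof* and *Stac*, which were not called, changed sign among alternatives (-0.16 to 0.75 and -0.39 to 0.55 on the log2 scale). The control libraries held 6 and 10 nuclei, which limits the comparison of genes of few UMIs.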
